A study of Mus musculus with 13 samples.

Results

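The genes described here are the replication-dependent histone genes that the deposited count table lists under the older symbols beginning with Hist1h, Hist2h, Hist3h or Hist4h. Leaving out symbols with the pseudogene mark, 9 of the table's 55774 gene entries carried such a symbol. They were 4 entries for histone H2A (Hist1h2al, Hist1h2an, Hist1h2ao and Hist1h2ap), 3 for H2B (Hist1h2bp, Hist1h2bq and Hist1h2br) and 2 for H4 (Hist1h4m and Hist1h4n). None was an H1 or H3 gene, and none came from the Hist2, Hist3 or Hist4 clusters. A further 60 replication-dependent histone genes stand in the same table under the newer symbols (such as H2bc12 or H4c11). These 60 were found through RefSeq synonyms that carry the older symbols, after the table's symbols had been seen. They serve here as the rest of the family. Hist1h2al carries no pseudogene mark in its symbol, but the annotation calls it a processed pseudogene, and it is therefore given apart from the coding genes where that matters.

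RNA was measured in naive splenic CD4+ T cells of female NOD mice that carry the BDC2.5 T cell receptor, which recognises an antigen of islet beta cells. In the STZ-macrophage co-culture (5 libraries) these T cells spent 96 hours with islet macrophages of NOD mice given 1 low dose of the beta-cell toxin streptozotocin (STZ). In the control-macrophage co-culture (4 libraries) the macrophage donors had received buffer, and in the cells alone (4 libraries) no macrophages were added. All donors were injected at 4 weeks of age and gave islets 10 days later, at 5.5 weeks. All T cells, those alone included, carried the same receptor transgene. Whether T cells kept without macrophages went through culture is not stated in the labels, so culture and macrophages cannot be told apart in any comparison with them. Macrophages were enriched on magnetic beads, and the sort after co-culture took live cells with CD45, Thy1.2 and CD4 on their surface. Whether macrophage donors were pooled is not stated. The labels call the replicates biological without naming the mice, so the p-values below measure the spread between libraries. STZ replicates 1 and 5, control replicates 1, 2 and 4 and all cells alone were collected on day 1. STZ replicates 2, 3 and 4 and control replicate 3 were collected on day 2.

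Replication-dependent histone genes supply the core and linker histones that wrap newly made DNA, and cells transcribe them mainly in S phase. Their mRNAs are not normally polyadenylated. They end in a conserved stem-loop, which the stem-loop binding protein SLBP holds, and the U7 small nuclear ribonucleoprotein directs the cut behind it. In lymphocytes, which rest until an antigen makes them divide, this supply is known to follow entry into the cell cycle. The cDNA kit named in the labels primes on poly(A) tails, so the counts reflect histone transcripts that the kit could capture, and what share of all histone mRNA that is was not tested.

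The stem-loops of the entries with a coding model that reaches that far are printed because this element takes the place of the poly(A) tail. The sequences are from GENCODE vM21 transcripts (GRCm38), 5′ to 3′, written as DNA, and capitals mark the stem-loop.
Hist1h2ao: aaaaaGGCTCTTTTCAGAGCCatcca
Hist1h2ap: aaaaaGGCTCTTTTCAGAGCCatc
Hist1h2bp: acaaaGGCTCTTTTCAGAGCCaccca
Hist1h4m: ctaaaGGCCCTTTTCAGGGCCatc
Hist1h4n: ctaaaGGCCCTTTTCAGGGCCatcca
The H2A and H2B entries shown share 1 stem-loop, and both H4 entries share another, which differs in its stem. The stem-loop begins 38 bases after the stop codon in Hist1h2ao and Hist1h2ap, 33 in both H4 entries and 27 in Hist1h2bp. No stem-loop was found in the models of Hist1h2al, of Hist1h2an (393 bases, the coding sequence alone), of Hist1h2bq and of Hist1h2br. A further model of Hist1h2bp, with 2 exons, has none either. Hist1h2bq and Hist1h2br have 3 models each, with up to 3 exons.

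Of the 9 entries, 8 lie together on chromosome 13 (GRCm38, GENCODE vM21). They form 3 divergent pairs of an H2A and an H2B gene, with an H4 gene beside 2 of the pairs. Hist1h2an (21786826 to 21787218, minus strand) faces away from Hist1h2bp (21787461 to 21789213, plus strand). Hist1h2bq (21806612 to 21810197, minus) faces away from Hist1h2ao (21810465 to 21810944, plus), with Hist1h4m following at 21811746 to 21812147 on the plus strand. The same order returns inverted, with Hist1h4n at 21831767 to 21832196 (minus), Hist1h2ap at 21833026 to 21833507 (minus) and Hist1h2br at 21833743 to 21837530 (plus). Hist1h2al lies apart at 51202727 to 51203065 on the minus strand of the same chromosome.

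**Figure D1:**
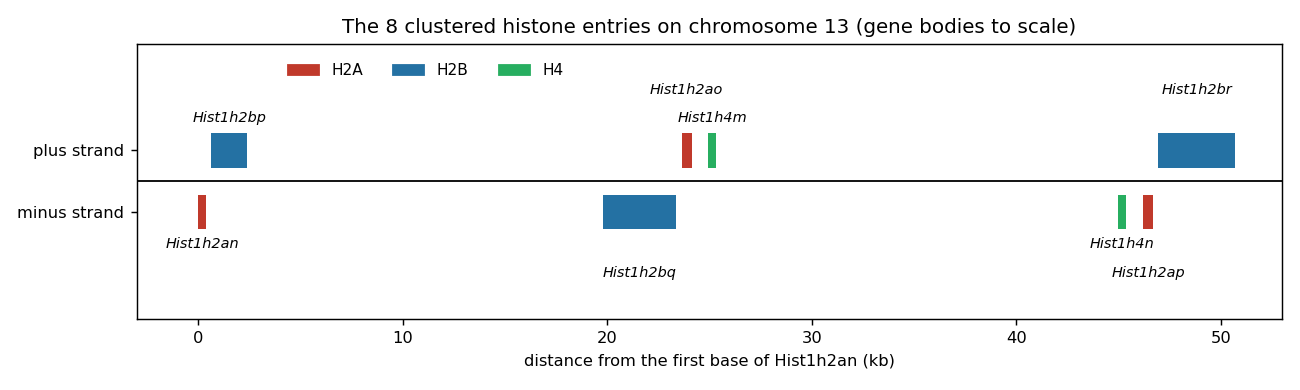
Gene bodies of the 8 clustered histone entries, drawn to scale by distance in kb from the first base of Hist1h2an, with plus-strand genes above the line, minus-strand genes below it and colours for the histone type. The trio Hist1h2bq, Hist1h2ao and Hist1h4m recurs in mirror order as Hist1h4n, Hist1h2ap and Hist1h2br.

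The repeat makes single copies hard to separate by sequencing. The coding sequences of Hist1h2ao and Hist1h2ap (393 bases), of Hist1h2bq and Hist1h2br (381 bases) and of Hist1h4m and Hist1h4n (312 bases) are identical within each pair. Hist1h2an differs from Hist1h2ao and Hist1h2ap at 5 bases (98.7% identity), and Hist1h2bp from Hist1h2bq and Hist1h2br at 6 bases (98.4%). Of the 150-base stretches in a gene's transcripts (the read length), 91.5% of those of Hist1h2ao, 91.0% of Hist1h2ap, 92.4% of Hist1h2bq, 84.2% of Hist1h2br, 85.8% of Hist1h4m, 77.2% of Hist1h4n and 72.5% of Hist1h2an also occur in another annotated gene. The share was 22.6% for Hist1h2bp and 0% for Hist1h2al. The rule by which the authors' counting assigned such reads is not stated, so the value of 1 copy is uncertain and the sum of each identical pair is given as well.

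The promoters between divergent genes are shown for the pairs that hold the H2A and H2B entries with the highest levels, together with the promoter of an H4 gene, since each pair shares 1 stretch of DNA. They are from RefSeq's promoter windows (GRCm38.p6), plus strand for the pairs and minus strand for Hist1h4n. Capitals mark the motif TATAA, the motif CCAAT and the motif ATTTGNAT on either strand, and no marked match overlaps another in the stretches shown.
Hist1h2an and Hist1h2bp, chr13:21787249-21787460: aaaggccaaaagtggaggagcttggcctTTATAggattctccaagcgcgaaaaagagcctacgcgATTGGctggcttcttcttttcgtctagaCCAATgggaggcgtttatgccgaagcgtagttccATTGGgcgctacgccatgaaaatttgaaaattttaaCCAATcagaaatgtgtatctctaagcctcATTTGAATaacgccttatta
Hist1h2ap and Hist1h2br, chr13:21833508-21833742: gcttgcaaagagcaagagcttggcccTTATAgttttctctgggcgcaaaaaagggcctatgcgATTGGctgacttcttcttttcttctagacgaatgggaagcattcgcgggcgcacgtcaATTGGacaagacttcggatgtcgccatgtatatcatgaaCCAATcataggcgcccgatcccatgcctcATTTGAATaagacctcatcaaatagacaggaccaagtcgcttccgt
Hist1h4n, chr13:21832198-21832347: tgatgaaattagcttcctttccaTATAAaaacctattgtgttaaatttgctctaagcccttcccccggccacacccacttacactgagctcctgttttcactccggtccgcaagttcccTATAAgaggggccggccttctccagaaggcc
CCAAT is the site of the factor NF-Y, TATAA that of the TATA-binding protein, and ATTTGNAT is a relaxed form of the octamer bound by OCT1 in H2B promoters. RefSeq windows of 300 bases were matched for the 8 clustered entries. CCAAT occurred in 6 of these 8 windows, against 37.4% of all 32851 mouse windows of that length. TATAA occurred in 8 of 8 (24.9% of all windows) and ATTTGNAT in 6 of 8 (4.36% of all windows), both H4 windows lacking CCAAT and ATTTGNAT. A divergent pair shares its matches, so these windows are not independent. Over 300 bases, the windows of Hist1h2bq and Hist1h2br were identical, and those of Hist1h4m and Hist1h4n differed at 1 of 299 aligned bases.

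Libraries held between 17.3 and 61.3 M estimated counts. Levels below are CPM (counts per 1 M), scaled to the library's total count times its TMM factor, so that 3 counts correspond to 0.0493 to 0.133 CPM in a library. The 8 T cell markers were all present in each library, and summed to 9003 to 12256 CPM with STZ macrophages, 11991 to 22324 CPM with control macrophages and 7253 to 14221 CPM in the cells alone. Of the 9 histone entries, 6 passed the filter on low counts that preceded the tests (Hist1h2ao, Hist1h2ap, Hist1h2bp, Hist1h2br, Hist1h4m and Hist1h4n). Hist1h2al, Hist1h2an and Hist1h2bq did not and are described only. The filter bears on the comparisons with cells alone. Hist1h2br, Hist1h2bp and Hist1h2ap passed it through the co-cultures. In the cells alone they were at 0, at most at 0.184 CPM and at 0 in 3 of 4 libraries. Hist1h2al, with its highest level in the cells alone (10.2 CPM), failed it. Counts of calls and medians against cells alone therefore hold for the entries kept and not for all 9. Histone reads were few: the 9 entries together held 10662 estimated counts over all libraries, of which 71.3% came from STZ replicate 1. STZ replicate 1 stood apart in the H2A entries, cells-alone replicate 2 in Hist1h2al, and results that rest on either are given with and without it.

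Among the H2A entries, which encode a core histone of the nucleosome, Hist1h2ap had the highest level. In STZ replicates 1 to 5 it stood at 153, 1.03, 0.736, 1.45 and 13.7 CPM. In control replicates 1 to 4 it stood at 1.69, 3.19, 1.33 and 2.77 CPM, and in the cells alone at 0, 1.42, 0 and 0 CPM. The STZ-macrophage libraries thus lay on both sides of the control-macrophage libraries, with replicates 1 and 5 above all of them and replicates 2 and 3 below. STZ replicate 1 alone held 6239 of the 7261 estimated counts of Hist1h2ap (85.9%), and 82.0% of all histone-entry counts in that library were of Hist1h2ap.

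Its identical copy Hist1h2ao had the same 2 libraries on top. It was at 21.4, 0, 0.560, 0.493 and 3.74 CPM in STZ replicates 1 to 5, against 0.379, 0.427, 0.123 and 0 CPM in control replicates 1 to 4. The cells alone had 0.0920, 1.51, 0.0671 and 0 CPM. Summing both copies removes the uncertain split of reads between them. The summed level was 174, 1.03, 1.30, 1.94 and 17.5 CPM with STZ macrophages. It was 2.07, 3.61, 1.45 and 2.77 CPM with control macrophages, and 0.0920, 2.93, 0.0671 and 0 CPM in the cells alone. All groups overlapped in this sum, the cells alone only through replicate 2. The sum does not remove a split of reads with genes outside the pair. Of the stretches of read length, 64.4% of those of Hist1h2ao and 64.0% of Hist1h2ap also occur in Hist1h2ag.

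Hist1h2an, the third coding H2A gene, was found in 3 of 13 libraries. It had 1.27 CPM in STZ replicate 1, 0.111 CPM in STZ replicate 5 and 0.0617 CPM in control replicate 3. Over the groups these were 56 counts with STZ macrophages, against 2 with control macrophages (ratio 21.8, exact 95% interval 5.77 to 185, counting error only) and 0 in the cells alone (at least 12.8-fold higher, at a floor of 3 counts over the group). STZ replicate 1 held 89.8% of all its counts, and without that library 4 counts with STZ macrophages stood against 2 with control macrophages (ratio 1.97, exact 95% interval 0.282 to 21.8) and 0 in the cells alone (at least 1.15-fold higher). The pseudogene Hist1h2al, whose 150-base stretches occur in no other annotated gene, was at 2.99, 0, 0, 0 and 1.33 CPM in STZ replicates 1 to 5, against 0, 0.0493, 0 and 0 CPM in control replicates 1 to 4 (170 against 3 counts, ratio 44.2, exact 95% interval 14.9 to 216, counting error only). Without STZ replicate 1 it was 48 against 3 counts (ratio 15.8, exact 95% interval 5.08 to 79.1). In the cells alone it was at 0.153, 10.2, 0.0224 and 0 CPM. Its highest level was thus in cells-alone replicate 2, which held 56.2% of its counts.

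The H2B entries, whose product pairs with H2A in the nucleosome, had higher summed levels in the co-cultures than in the cells alone, although none of the 3 entries by itself set both co-cultures apart. Hist1h2bp stood at 2.42, 0.990, 0.295, 1.05 and 4.46 CPM in STZ replicates 1 to 5. It stood at 2.41, 4.68, 0 and 1.02 CPM in control replicates 1 to 4, and at 0.184, 0.133, 0 and 0 CPM in the cells alone. Every STZ-macrophage library was above every library of cells alone, while control replicate 3, of day 2, had no count.

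Hist1h2br was at 1.27, 0.266, 0, 0.370 and 0.582 CPM in STZ replicates 1 to 5, at 0.379, 0.443, 0.586 and 0.396 CPM in control replicates 1 to 4, and at 0 in all 4 libraries of cells alone. Its copy Hist1h2bq was at 0 to 0.514 CPM with STZ macrophages, at 0 to 0.278 CPM with control macrophages and at 0 to 0.263 CPM in the cells alone, so that all groups overlapped. Summed over the pair the level was 1.79, 0.400, 0.236, 0.370 and 0.665 CPM with STZ macrophages, 0.379, 0.591, 0.864 and 0.429 CPM with control macrophages and 0, 0, 0.156 and 0.263 CPM in the cells alone. In this sum the control-macrophage libraries stayed above the cells alone, and the STZ-macrophage libraries overlapped them by replicate 3.

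The H4 entries, for the core histone that pairs with H3, overlapped in all groups. Hist1h4n was at 2.64, 0.799, 0, 0.831 and 1.99 CPM in STZ replicates 1 to 5, at 0.826, 1.61, 0 and 0.560 CPM in control replicates 1 to 4, and at 1.23, 1.77, 0 and 0 CPM in the cells alone. Hist1h4m was at 0.931, 0.0571, 0.206, 0 and 2.66 CPM with STZ macrophages, at 0, 1.87, 0.0925 and 0 CPM with control macrophages, and at 0.245, 2.62, 0.469 and 0 CPM in the cells alone, in the same order of replicates. The sum of both was 0.206 to 4.65 CPM with STZ macrophages, 0.0925 to 3.48 CPM with control macrophages and 0 to 4.39 CPM in the cells alone.

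**Figure D2:**
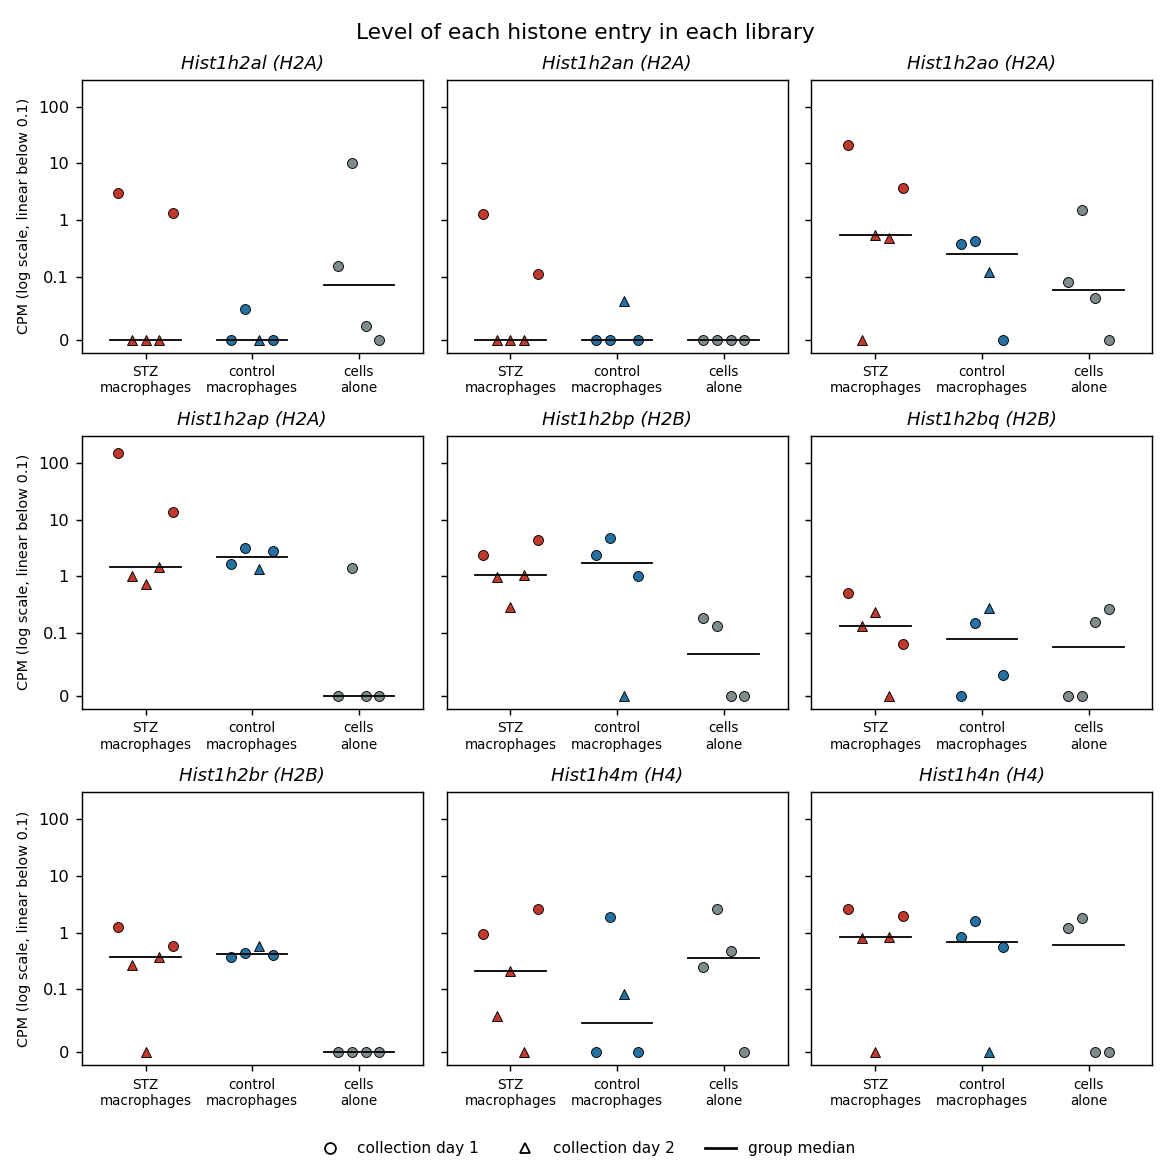
CPM of each of the 9 histone entries (vertical axis, log scale that is linear below 0.1) in each library of the STZ-macrophage co-culture, the control-macrophage co-culture and the cells alone, with circles for day 1, triangles for day 2 and a bar at the group median. STZ replicate 1 reaches 153 CPM for Hist1h2ap, and Hist1h2br is at 0 in all cells alone.

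By histone type, the summed H2A level averaged 40.3 ± 77.6 CPM with STZ macrophages (SD, n = 5), 2.50 ± 0.929 CPM with control macrophages (n = 4) and 3.36 ± 6.49 CPM in the cells alone (n = 4). Without STZ replicate 1 and cells-alone replicate 2 it was 5.80 ± 8.76 CPM with STZ macrophages (n = 4), 2.50 ± 0.929 CPM with control macrophages (n = 4) and 0.112 ± 0.124 CPM in the cells alone (n = 3). The H2B sum was 2.53 ± 2.01 CPM with STZ macrophages and 2.59 ± 1.96 CPM with control macrophages, against 0.184 ± 0.0566 CPM in the cells alone. In the sum of the 3 H2B entries, all co-cultures (0.530 to 5.27 CPM) were above all cells alone (0.133 to 0.263 CPM). The sum of the 15 other H2B genes, given below, did not separate the groups. The H4 sum was 2.02 ± 1.96 CPM with STZ macrophages, 1.24 ± 1.52 CPM with control macrophages and 1.58 ± 1.97 CPM in the cells alone, differences smaller than the spread within each group. These sums describe levels and were not tested, and in bulk RNA fewer cells that express a gene and less RNA per cell cannot be told apart.

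**Figure D3:**
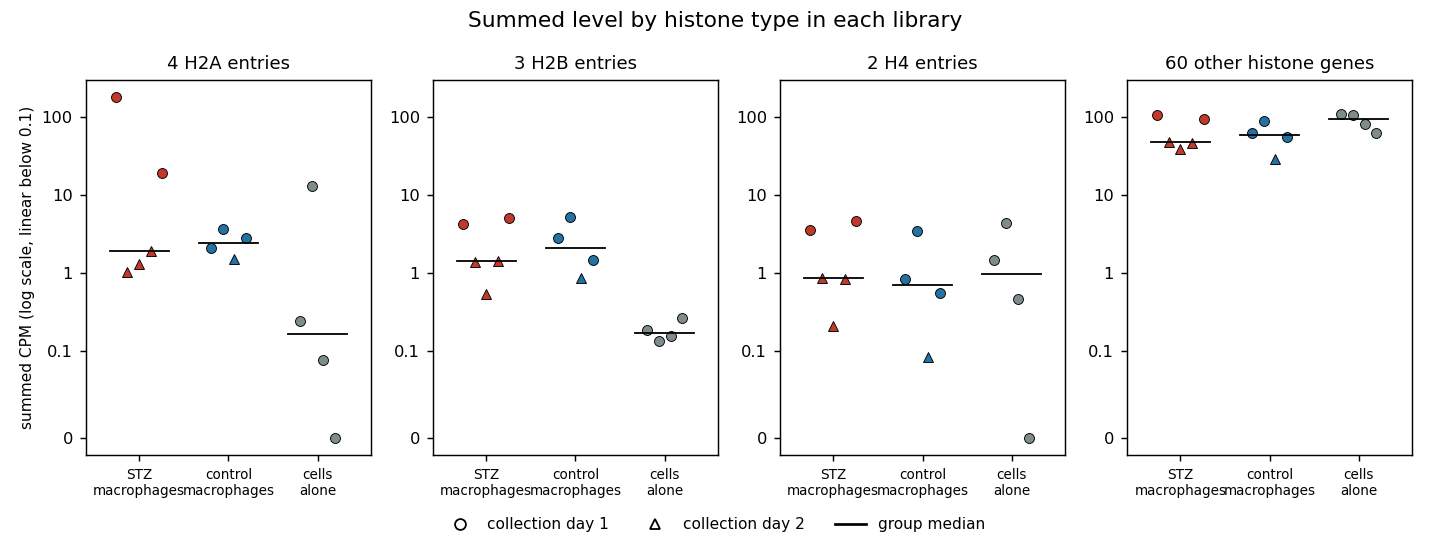
Summed CPM (log scale, linear below 0.1) of the 4 H2A, 3 H2B and 2 H4 entries and of the 60 other replication-dependent histone genes in each library, with circles for day 1, triangles for day 2 and a bar at the group median. The sums of the 3 H2B entries in the co-cultures, at 0.530 CPM or more, lie above those in the cells alone, at 0.263 CPM or less.

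The comparison of the STZ-macrophage with the control-macrophage co-culture asks what limited beta-cell death in the donor islets changes in the T cells. No histone entry passed the test. Of 6 tested, 0 were called by edgeR (Benjamini-Hochberg adjusted p under 0.05 over all genes), beside 0.323% of the 15781 genes tested. DESeq2 called 0 of the 6 as well, and limma 0 of the 3 that the authors' adjusted table holds. The unadjusted p was under 0.05 for Hist1h2ao alone among the 6, beside 22.8% of all genes tested. All 6 log2 fold changes were positive under the main model, with a median of 1.73 against -0.13 over all genes tested, and those of Hist1h2br and Hist1h2bp turned negative under some alternatives.

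Hist1h2ao had a log2 fold change of 4.27 (SE 1.68, edgeR adjusted p = 0.180) and Hist1h2ap one of 2.80 (SE 1.52, adjusted p = 0.274). Without STZ replicate 1 these were 2.78 (adjusted p = 0.405) and 1.10 (adjusted p = 0.666). When the cells alone were left out of the fit, Hist1h2ao was called (4.89, adjusted p = 0.0404). The H4 entries stood at 2.06 (Hist1h4n, SE 1.69) and 1.00 (Hist1h4m, SE 1.59), and the H2B entries at 1.40 (Hist1h2bp, SE 1.27) and 0.11 (Hist1h2br, SE 0.96), with adjusted p of 0.451 to 0.952 by edgeR.

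The 2 libraries with the highest H2A levels, STZ replicates 1 and 5, are also the STZ-macrophage libraries of day 1. Within day 1, Hist1h2ap had a log2 fold change of 5.03 (SE 1.56, edgeR adjusted p = 0.169) and Hist1h2ao one of 5.50 (SE 1.91, adjusted p = 0.212). Again 0 of 6 entries were called, beside 0.215% of all genes, and 2 had an unadjusted p under 0.05, beside 16.3% of all genes. Within day 2, with 1 control-macrophage library, Hist1h2ap was at -0.31 (SE 1.86, edgeR adjusted p = 0.966), 0 entries were called by edgeR, as were 0% of all genes, and 1 entry had an unadjusted p under 0.05, beside 2212 of 15781 genes. The difference between the days was -5.33 for Hist1h2ap (SE 2.25, edgeR adjusted p = 0.452). It was called for 0 of 6 entries by edgeR and by DESeq2, beside 0.00634% of genes by edgeR, with 2 entries under an unadjusted p of 0.05, beside 9.82% of all genes. No fold is given within day 2 for Hist1h2bp and Hist1h4n, which had no count in the control library of that day. Hist1h2bp was the entry under an unadjusted p of 0.05 within day 2 and was among those for the day difference. Both of these counts therefore include an entry that rests on that single library without a count.

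Other measurements are given beside these libraries. The 19 macrophage markers summed to 29.2 and 34.0 CPM in STZ replicates 1 and 5 and to 35.9, 126 and 136 CPM in replicates 2, 3 and 4, with 17 to 19 markers above 0 in each. In the control-macrophage co-culture they summed to 9.23 to 69.3 CPM (16 to 18 above 0, Mertk at 0 in all), and in the cells alone to 3.80 to 14.1 CPM (7 to 12 above 0, Cd14 at 0 in all). Among the STZ-macrophage libraries, replicates 3 and 4 had the highest marker sums, and replicates 1 and 5 the highest H2A levels. Replicates 1 and 5 are of day 1 and the others of day 2. Whether macrophage RNA had a part in the H2A levels was not tested. Islet endocrine markers reached 157 and 117 CPM in STZ replicates 2 and 4 and at most 3.33 CPM elsewhere. B cell markers summed to 0.471 to 1.39 CPM with STZ macrophages and 0.617 to 1.71 CPM with control macrophages, against 5.64 to 24.2 CPM in the cells alone. Rn7sk, a tailless small RNA chosen after its values were seen, was at 1.67 and 1.83 CPM in STZ replicates 1 and 5 and at 1.12, 3.27 and 1.85 CPM in replicates 2, 3 and 4. It was at 1.55 to 2.71 CPM with control macrophages and at 2.52, 28.4, 32.2 and 22.5 CPM in cells-alone replicates 1 to 4. Cells-alone replicate 1 lay within the co-cultures' range and the other 3 lay above it, and the part of tailless RNA capture in the comparisons with cells alone was not tested.

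The comparison of the control-macrophage co-culture with the cells alone covers 96 hours with macrophages and any culture effect. The tested H2B entries were higher with control macrophages, and H4 entries and Hist1h2ao were not called. Of 6 entries tested, 2 rose and 0 fell (edgeR), beside 45.0% of all genes tested that were called and 23.1% of all genes tested that were called as higher. Hist1h2bp rose by a log2 fold change of 4.80 (SE 1.24, edgeR adjusted p = 0.00754). Hist1h2br rose as well (adjusted p = 0.00480). Since it had 0 counts in the cells alone against 69 in the control-macrophage co-culture, it was at least 20.2-fold higher, at a floor of 3 counts over the group. Its copy Hist1h2bq had counts in 2 of the 4 libraries of cells alone, so the bound and the adjusted p depend on how reads were split between them. Summed over the pair, the mean was 0.565 CPM with control macrophages and 0.105 CPM in the cells alone, and this sum was not tested.

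Hist1h2ap had a log2 fold change of 4.32 (SE 1.75, edgeR adjusted p = 0.0612). Cells-alone replicate 2 is the only library of its group with a count of Hist1h2ap, and without it the gene was called (adjusted p = 0.00717), as it was by DESeq2 (4.40, adjusted p = 0.0352). Hist1h2ao (0.14, SE 1.85), Hist1h4n (0.15, SE 1.48) and Hist1h4m (-0.15, SE 1.61) had adjusted p of 0.941 to 0.956, and each changed sign under some alternatives. The median of the 6 was 2.23, against -0.13 over all genes tested, and between -0.26 and 4.06 when libraries were left out in turn. In the authors' adjusted table Hist1h2bp was not called (1.13, adjusted p = 0.435, limma).

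In the STZ-macrophage co-culture, set against the same cells alone, the tested H2B and H2A entries were higher and the H4 entries were not called. Of 6 entries tested, 4 rose and 0 fell (edgeR), beside 43.1% of all genes tested that were called and 20.8% of all genes tested that were called as higher. Hist1h2bp rose by 6.20 (SE 1.42, edgeR adjusted p = 0.00375), Hist1h2ap by 7.12 (SE 1.76, adjusted p = 0.00574) and Hist1h2ao by 4.41 (SE 1.62, adjusted p = 0.0425), all as log2 fold changes. Hist1h2br (adjusted p = 0.00418) was at least 22.6-fold higher, with 99 counts against 0. This bound and its adjusted p also depend on how reads were split with its copy Hist1h2bq. Summed over the pair, the mean was 0.692 CPM with STZ macrophages and 0.105 CPM in the cells alone. In that sum STZ replicate 3 (0.236 CPM) lay within the range of the cells alone (0 to 0.263 CPM). Hist1h4n (2.21, SE 1.75, adjusted p = 0.329) and Hist1h4m (0.86, SE 1.65, adjusted p = 0.700) did not pass.

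The H2A part of this result rests partly on single libraries. Without STZ replicate 1, Hist1h2ap had a log2 fold change of 4.49 (edgeR adjusted p = 0.0409) and Hist1h2ao one of 2.55 (adjusted p = 0.272). Hist1h2ao lost its call under 15 of 23 alternatives, with adjusted p of 0.00477 to 0.304. With STZ replicate 1 and cells-alone replicate 2 both left out, 4 entries were again called, and 3 in control macrophages against cells alone. The median of the 6 entries was 5.30, or 4.45 with Hist1h2br at its bound, against -0.05 over all genes. Some of the 6 entries passed the filter only through the co-cultures, so this median describes the entries kept. The 2 comparisons share the cells alone as their controls.

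**Figure D4:**
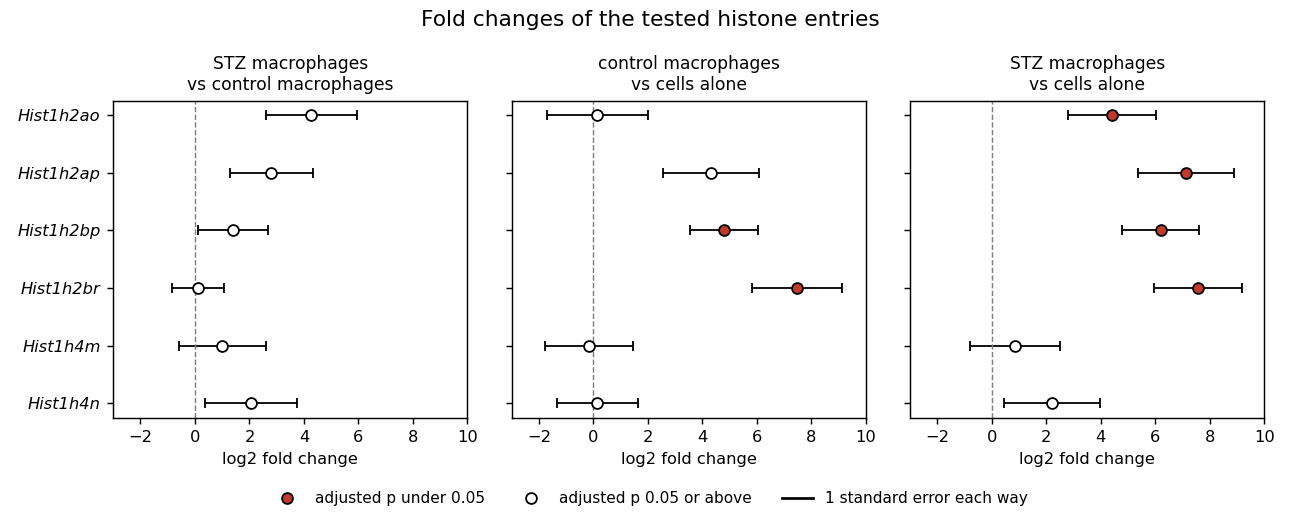
Log2 fold change of the 6 tested histone entries with 1 standard error each way, in STZ against control macrophages (left), control macrophages against cells alone (middle) and STZ macrophages against cells alone (right); filled points have an edgeR adjusted p under 0.05. No point is filled on the left, 2 H2B entries are filled in the middle, and H2B and H2A entries are filled on the right, where the values of Hist1h2br depend on a group at 0.

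The other 60 replication-dependent histone genes were set beside these entries. They comprised 6 H1, 16 H2A, 15 H2B, 12 H3 and 11 H4 genes, of which 28 were tested, 13 of them H2B genes and 1 each H2A and H3. Their summed level was 105, 47.4, 38.8, 47.0 and 95.5 CPM in STZ replicates 1 to 5, 61.6, 88.1, 29.1 and 55.8 CPM in control replicates 1 to 4, and 110, 107, 80.1 and 62.4 CPM in the cells alone. STZ replicates 1 and 5 were again the highest of their group, here within the range of the cells alone. The sum in the cells alone rested mostly on a few genes, by mean H1f2 (30.5 CPM), H2aw (20.8 CPM), H2bc18 (9.97 CPM) and H2bc21 (7.77 CPM). Each of them had a lower mean in both co-cultures, so the summed level does not show how most of the family behaved. The 15 other H2B genes summed to 22.8 ± 9.47 CPM (mean and SD) with STZ macrophages. Their sum was 23.3 ± 14.3 CPM with control macrophages and 24.5 ± 4.94 CPM in the cells alone. In the cells alone, H2bc18 and H2bc21 held most of this H2B sum, although more of the tested H2B genes rose than fell, as given below. The 16 other H2A genes summed to 5.04 ± 4.16 CPM with STZ and 3.24 ± 2.30 CPM with control macrophages, against 23.9 ± 18.2 CPM in the cells alone. Of this cells-alone sum, H2aw alone held 20.8 CPM on average. H2ac18, at 0 in 3 of the 4 libraries, held 2.50 CPM. H2aw averaged 2.37 CPM with STZ and 2.90 CPM with control macrophages, so the difference in this sum mostly followed 1 gene. These sums were not tested. In STZ against control macrophages, 0 of the 28 were called by edgeR, 3 had an unadjusted p under 0.05 (22.8% of all genes did), and the median log2 fold change was 0.95. With control macrophages against cells alone, 8 rose and 3 fell, and 6 of the 13 tested H2B genes were among those that rose. With STZ macrophages against cells alone, 12 rose and 3 fell, with 8 of the 13 H2B genes among those that rose. These counts stand beside the 45.0% (control macrophages) and 43.1% (STZ macrophages) of all genes called, and for the control-macrophage comparison they do not exceed that share.

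The H2B gene H2bc12 was at 7.69, 3.50, 1.68, 3.57 and 7.45 CPM with STZ macrophages, 3.24, 9.06, 0.185 and 3.00 CPM with control macrophages and 0.0920, 0, 0 and 0 CPM in the cells alone. H2bc14 was at 0.943 to 3.66 CPM with STZ macrophages, at 0.185 to 4.94 CPM with control macrophages and at 0 to 0.0614 CPM in the cells alone. Both were called in either comparison with cells alone (adjusted p of 8.3e-05 to 1.7e-04, edgeR), and their co-culture libraries lay above all cells alone. The linker histone gene H1f2 went the other way, at 14.6, 1.62, 2.53, 1.97 and 13.7 CPM with STZ macrophages, 2.38, 4.29, 1.97 and 2.80 CPM with control macrophages and 23.6 to 35.9 CPM in the cells alone. It fell by 1.55 with STZ macrophages (edgeR adjusted p = 0.00955) and by 2.86 with control macrophages (adjusted p = 2.9e-04) on the log2 scale. Within day 1 it was higher with STZ than with control macrophages (2.16, SE 0.35, edgeR adjusted p = 0.0354), so STZ replicates 1 and 5 stood above the control-macrophage libraries in H1f2 as they did in Hist1h2ap. H2bc18 fell in both comparisons with cells alone (-2.17 with STZ and -1.66 with control macrophages). These family members, and those named within the sums above, were chosen after their values were seen.

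Genes that process histone mRNA were followed next. Slbp, whose product binds the stem-loop, was at 600.5, 593, 307, 470 and 631 CPM in STZ replicates 1 to 5, at 638, 603, 138 and 383 CPM in control replicates 1 to 4 and at 112, 139, 72.0 and 27.5 CPM in the cells alone. It rose with STZ macrophages (3.16, edgeR adjusted p = 4.2e-04) and with control macrophages (2.43, adjusted p = 0.00102) against cells alone, and had 0.73 (adjusted p = 0.363) between the co-cultures. Control replicate 3, of day 2, overlapped the cells alone in Slbp and was also the lowest of its group in the summed H2B and H4 entries. Lsm11, a protein specific to the U7 particle, was lower, at 0.955 to 1.47 CPM with STZ macrophages and 1.41 to 2.71 CPM with control macrophages, against 6.74 to 9.94 CPM in the cells alone. Its log2 fold changes against cells alone were -3.01 with STZ macrophages (adjusted p = 5.2e-05) and -2.04 with control macrophages (adjusted p = 4.3e-04). Of the 18 genes of histone pre-mRNA processing, 8 rose and 2 fell with STZ macrophages, and 7 rose and 1 fell with control macrophages, both against cells alone. For this and the lists that follow, 20.8% of all genes tested were called higher and 22.3% lower with STZ macrophages, and 23.1% higher and 22.0% lower with control macrophages. Snrpe, a protein of the ring that U7 and spliceosomal particles share, rose by 1.12 with STZ and by 1.69 with control macrophages, and Lsm10 was called in neither.

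**Figure D5:**
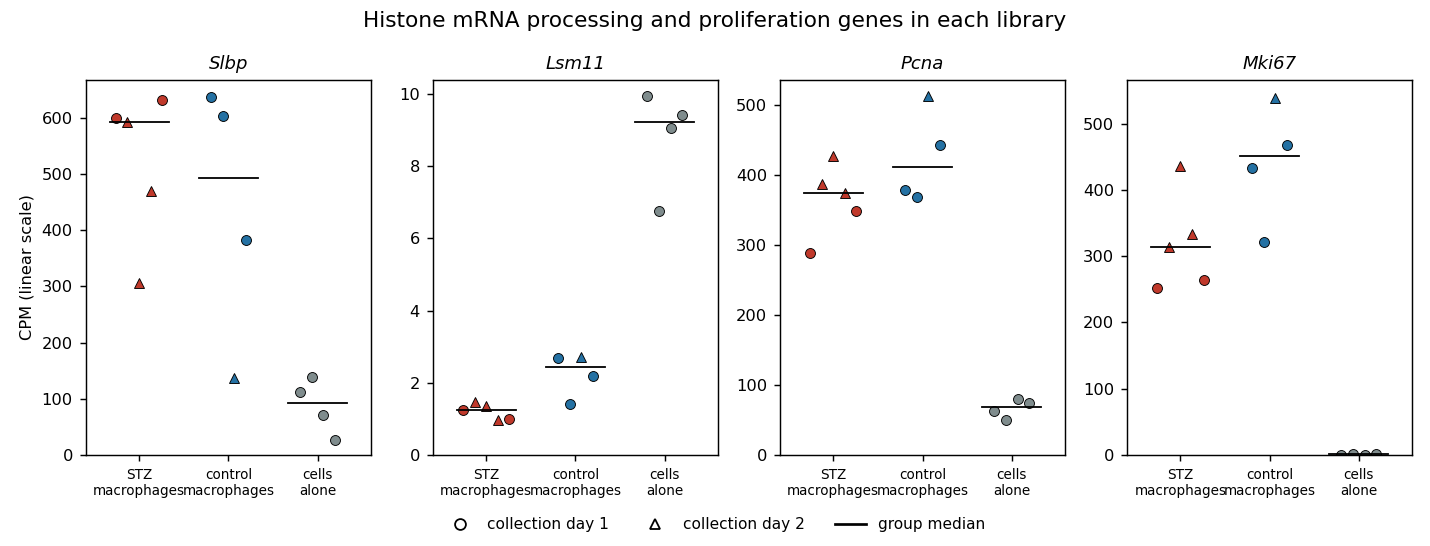
CPM (linear scale) of Slbp, Lsm11, Pcna and Mki67 in each library of the STZ-macrophage co-culture, the control-macrophage co-culture and the cells alone, with circles for day 1, triangles for day 2 and a bar at the group median. Lsm11 is at 2.71 CPM or less in the co-cultures and at 6.74 CPM or more in the cells alone, whereas Pcna and Mki67 are higher in every co-culture library.

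Genes of DNA replication were higher in almost every case in the co-cultures. Of 26, 25 rose with STZ macrophages and 23 with control macrophages against cells alone, 0 fell, and 0 were called between the co-cultures by edgeR (7 with an unadjusted p under 0.05). Pcna, the sliding clamp of the replication fork, was at 289 to 427 CPM with STZ macrophages and 368 to 513 CPM with control macrophages, against 49.7 to 80.4 CPM in the cells alone. Mki67, a marker of cycling cells, was at 252 to 436 CPM with STZ macrophages and 322 to 539 CPM with control macrophages, against 0 to 1.70 CPM in the cells alone. STZ replicates 1 and 5, the highest in H2A, had the lowest Mki67 (252 and 264 CPM) and the lowest Pcna (289 and 349 CPM) of the STZ-macrophage libraries. Both are of day 1. Control replicate 3, of day 2, had the highest Mki67 (539 CPM) and Pcna (513 CPM) of its group, so collection day and H2A level cannot be told apart here. Slbp went the other way, with its highest STZ-macrophage levels in replicates 1 and 5 (600.5 and 631 CPM). Tk1, which makes thymidine monophosphate, rose by 6.08 with STZ and by 6.62 with control macrophages on the log2 scale, and Mcm3, a subunit of the replicative helicase, by 2.96 with STZ and by 3.27 with control macrophages.

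Among 13 genes of histone gene transcription, 5 rose and 0 fell in each comparison with cells alone. Ccne2, a cyclin that activates CDK2 at the start of S phase, rose by 5.06 with STZ and by 5.75 with control macrophages, and the S phase activator E2f1 by 5.30 with STZ and by 5.28 with control macrophages. Npat, the coactivator that CDK2 switches on at histone clusters, and Casp8ap2, its partner, were not called in any comparison. Of 15 genes of replication-coupled deposition, which load new histones behind the fork, 9 rose with STZ and 11 with control macrophages and 0 fell. The chaperone genes Asf1b (2.15 with STZ and 2.86 with control macrophages) and Chaf1b (2.31 with STZ and 2.55 with control macrophages) were among them. Of 14 genes of histone mRNA decay, 3 rose and 2 fell with STZ macrophages, and 3 rose and 0 fell with control macrophages. Lsm5 and Lsm6, of the ring that binds decaying mRNA, rose in both, and Tut7, which adds uridines to histone mRNA, fell with STZ macrophages (-0.92, adjusted p = 0.00864).

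Replacement histones are made outside S phase as well and from polyadenylated mRNA. Of 11 listed, 9 were tested, and 3 rose with STZ and 2 with control macrophages against cells alone. H2az1, for the variant H2A.Z, rose by 3.41 with STZ and by 2.71 with control macrophages, and Cenpa, the histone of centromeres, by 3.86 with STZ and by 2.84 with control macrophages. H3f3a, for H3.3, had 0.68 with STZ macrophages (adjusted p = 0.0295) and 0.45 with control macrophages (adjusted p = 0.0940), while the difference between the co-cultures was 0.24 (adjusted p = 0.486). Of 8 genes of replication-independent deposition, 2 rose and 3 fell with STZ macrophages, and 3 rose and 2 fell with control macrophages. Between the co-cultures, edgeR called 0 members of each of these lists. An unadjusted p under 0.05 was found for 8 genes of pre-mRNA processing, 3 of histone gene transcription, 4 of replication-coupled deposition, 8 of histone mRNA decay, 2 replacement histones and 4 of replication-independent deposition, beside 22.8% of all genes tested.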

How the data were processed

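RNA of 13 libraries was sequenced as paired 150-base reads, with a target of about 30 M reads a library, starting from 10 ng of RNA (integrity above 8.0), per the labels' protocols. The labels name a SMARTer kit, which is known not to keep the strand, and reads were aligned to GRCm38, per the labels' protocols. No counting program, annotation release or rule for reads that match several genes is stated. The authors deposited estimated counts per gene without normalization (11.0% of values not whole), which were rounded for the tests. A second deposited table holds log2 values that the authors adjusted for 12236 genes, with 3 of the histone entries, and served as an alternative tested with limma 3.58.1.

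The count test was edgeR 4.0.16's robust quasi-likelihood test (R 4.3.3), run on the 15781 genes that filterByExpr kept, with TMM scaling and a model of group and collection day over all libraries. Since all cells alone are of day 1, only the co-cultures inform the day term. P-values were adjusted over all genes by Benjamini-Hochberg and called under 0.05; SE was derived from the fold change and its F statistic. Values within days came from a model with a separate mean for each combination of group and day. The test was checked on simulated counts. Alternatives were RLE scaling, library totals, other filters, DESeq2 1.42.0, no day term, fewer libraries and a replicate block. Symbols were matched to GENCODE vM21 and RefSeq, and figures were drawn with matplotlib.

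Every histone entry could be named, and from each other gene list the up to 4 members with the smallest p, beside Slbp, Npat, Casp8ap2, Lsm10, Lsm11, Mki67 and Pcna. Members and lists were chosen with earlier results of these data known. Same-numbered libraries of control macrophages and cells alone deviated together (correlation 0.161 to 0.352 in 4 of 4 pairs). A pair with different numbers reached 0.433, however, and a library's own number gave the best match in 2 of 4. The labels state no pairing, so a pairing of these libraries is possible from the data but not established. The main model holds no term for it. A replicate block was run only as an alternative, and it left the count of calls in this comparison unchanged. Exact intervals and floors of 3 counts cover counting error only.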

Additional observations from a re-analysis of the deposited data

Results flagged for a closer look

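Of 39 group values checked (the CPM of 9 entries, 3 type sums and the total in 3 groups), 13 held a library that Dixon's criterion sets apart from the rest of its group. The criterion's nominal rate of 1 in 20 assumes normally distributed values, so it is no yardstick for these low counts with many zeros. A group in which only 1 library has a count is always set apart, as with Hist1h2al and Hist1h2an in the control-macrophage libraries. The values also share genes and libraries. STZ replicate 1 was set apart in Hist1h2ap (153 CPM), Hist1h2ao (21.4 CPM), Hist1h2an (1.27 CPM), the H2A sum (178 CPM) and the total of all entries (186 CPM). Control replicate 2 was set apart in Hist1h4m (1.87 CPM) and Hist1h2al (0.0493 CPM), and control replicate 3 in Hist1h2an (0.0617 CPM). Cells-alone replicate 2 was set apart in Hist1h2al (10.2 CPM), Hist1h2ao (1.51 CPM), Hist1h2ap (1.42 CPM), the H2A sum (13.1 CPM) and the total (17.6 CPM). The values of Hist1h2al and Hist1h2an in the control-macrophage libraries rest on 3 and 2 counts. The cause of these values was not tested.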

How the results depend on the processing

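With STZ against control macrophages, 0 entries were called under the alternatives run, except that 1 (Hist1h2ao) was called with only the 2 groups compared in the fit. With control macrophages against cells alone, the count of 2 became 1 with the filter of at least 1 CPM in 4 libraries, with only the 2 groups compared and in the authors' adjusted table, and lay between 2 and 3 when libraries were left out in turn. With STZ macrophages against cells alone, the count of 4 became 2 under that filter, 1 with the replicate block (Hist1h2bp, adjusted p = 0.0390; Hist1h2ap was at 0.115, Hist1h2br at 0.155 and Hist1h2ao at 0.260) and 1 in the adjusted table, and lay between 3 and 4 when libraries were left out. The stricter filter and the adjusted table test fewer entries; otherwise the cause was not tested.

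The median log2 fold change with control macrophages against cells alone was 0.31 without a filter, 4.31 with the stricter one, and between -0.26 and 4.06 with libraries left out in turn, when the filter also kept other entries. With STZ macrophages against cells alone it was 3.40 in the adjusted table and between 3.60 and 7.11 with libraries left out.

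The values that reversed were not called in the main model. Hist1h2ao with control macrophages against cells alone turned to -0.28 (library totals), -0.74 (no day term), -0.38 (day 1 alone), -0.30 (adjusted table) and lay between -0.40 and 2.90 with libraries left out singly (negative without cells-alone replicates 1, 3 or 4, control replicate 3 or STZ replicates 1 or 2). In the same comparison Hist1h4m turned to 0.027 (no filter), 1.73 (STZ replicate 1 and cells-alone replicate 2 left out, chosen after seeing the data) and lay between -3.03 and 1.62 with libraries left out singly. Hist1h4n turned to -0.20 (library totals) and lay between -0.48 and 1.09 with libraries left out singly. Hist1h4m with STZ macrophages against cells alone turned to -0.094 (no day term) and lay between -0.017 and 2.79 with libraries left out singly. With STZ against control macrophages, Hist1h2bp turned to -0.14 (no day term), and Hist1h2br to -0.80 (replicate block), -0.45 (both libraries left out) and lay between -0.45 and 1.35 with libraries left out singly. The day difference was called for 0 entries under all alternatives run; without control replicate 3 it cannot be estimated, and it was not run on the adjusted table.

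Same-numbered libraries of STZ and control macrophages correlated at -0.20 to 0.47, and of STZ macrophages and cells alone at -0.42 to 0.33, so these share only a number; the replicate block changed no other count of calls. Scaling moved the median log2 fold change over all genes. With TMM, RLE and library totals it was -0.13, -0.03 and 0.07 for STZ against control macrophages, -0.13, -0.08 and -0.45 for control macrophages against cells alone, and -0.05, 0.11 and -0.17 for STZ macrophages against cells alone. Low counts and near-identical copies limit what can be said of single entries.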
